A study of Mus musculus with 3 samples.

Results

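Voltage-gated calcium and sodium channel genes were followed in αTC1-6 cells, a mouse tumour line that keeps the glucagon output of pancreatic α cells. The genes were the 40 protein-coding genes whose mouse symbols begin with Cacna, Cacnb or Cacng, or with Scn and a digit, of 52948 gene IDs in the data. They comprised 26 calcium channel and 14 sodium channel genes, and all 40 were listed in each library. Of these, 11 had a mean of at least 1 FPKM (fragments scaled to gene length and to the counted reads of the library) over the 3 libraries. All cultures were infected for 16 h with an adenovirus. It carried NIK (NF-κB-inducing kinase, gene Map3k14), or NIK(KA), or β-galactosidase (β-Gal) as the control. NIK(KA) is known in the literature as a kinase-inactive mutant, which the labels do not spell out. The cells are a tumour line, the genes were delivered by virus, and no uninfected culture was analysed here.

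Each group held 1 library, so no difference below has a replicate check and none carries a p-value. Whole reads and library totals were recovered from the steps of the FPKM values. The libraries held 15523580 counted reads for NIK, 16652922 for NIK(KA) and 18629668 for β-Gal. All ratios are of reads per library total, with an exact 95% interval in brackets. The intervals cover counting error only, because each group held 1 library. No molecular identifiers are stated that would mark single molecules, so repeated reads of 1 molecule could make the intervals too narrow. Map3k14, the check of the labels, had 8.42 FPKM in NIK and 12.1 in NIK(KA), against 5.35 in β-Gal. Nfkb2, a gene of the pathway that NIK feeds, had 261 FPKM in NIK and 9.08 in NIK(KA), against 5.80 in β-Gal. All 7 listed α-cell markers were above 1 FPKM on average, and their summed level was 7947 FPKM in NIK and 11488 in NIK(KA), against 13414 in β-Gal. Gcg alone made up 6955, 10197 and 12093 FPKM of these sums, while Irx2 was at 299, 313 and 300 FPKM. Of 6 β-cell markers 2 passed a mean of 1 FPKM, in the order NIK, NIK(KA) and β-Gal Nkx6-1 with 29.6, 41.7 and 35.4 FPKM and Mafa with 0.716, 2.11 and 0.845, and the insulin genes Ins1 and Ins2 had 0 reads throughout. Of 4 markers of δ, PP and ε cells Ghrl passed, with 34, 49 and 38 reads, and Sst and Ppy had 0 reads throughout. The 5 listed liver markers, of which 3 passed 1 FPKM on average and none was at 0 throughout, summed to 26.7 FPKM in NIK and 16.4 in NIK(KA), against 6.09 in β-Gal. Serpina1a alone gave 428 of the 455 reads in NIK, whereas Alb, Apoa1 and Apoa2 were highest in NIK(KA). Their part in the channel results was not tested. In such bulk RNA, fewer cells of a type and less RNA per cell cannot be told apart.

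Voltage-gated calcium channels are built on a pore-forming α1 subunit, with α2δ and β subunits that aid its transport to the membrane and tune its gating. Voltage-gated sodium channels have a pore-forming α subunit and small β subunits with an immunoglobulin-like domain. In α cells, T-type calcium and sodium channels shape the action potential, and calcium entry through L-type and P/Q-type channels is linked to glucagon release.

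In these cells 1 gene led each kind of calcium channel subunit and the sodium pores. Among the auxiliary calcium subunits these were Cacng7, Cacna2d1 and Cacnb3, and among the pores they were Cacna1c and Scn8a. Cacng7 had the highest level of the 40 genes, with a mean of 114 FPKM, above 93.4% of detected protein-coding genes. Its protein belongs to the γ family, whose members also act as partners of AMPA-type glutamate receptors. Further down were Cacna1c at 72.2 FPKM, Cacna2d1 at 51.8, Scn8a at 30.1, Cacna1i at 29.8, Cacnb3 at 19.2 and Cacna1d at 8.04. The lowest of the 11 were Scn9a at 2.30, Scn2a at 1.41 and Cacnb2 at 1.36 FPKM. Just outside were Cacna1a at 0.649 and Cacng4 at 0.642 FPKM.

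This order depends on the gene length behind the deposited values, which was near the mean of the annotated transcripts and thus far below the full message of several large channels. For Scn8a that length was 3348 bases, against 11436 for the longest annotated transcript, and for Cacna1i it was 3076 against 9781. Per kilobase of the longest transcript, a setting added once the values were known, Cacng7 (78.1), Cacna1c (36.3) and Cacna2d1 (23.5) kept the highest levels. Cacnb3 (19.3) then stood above Cacna1i (9.36) and Scn8a (8.80), and Scn2a (0.554) and Cacnb2 (0.550) lay under 1. Ratios of 1 gene between libraries do not depend on that length.

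**Figure D1:**
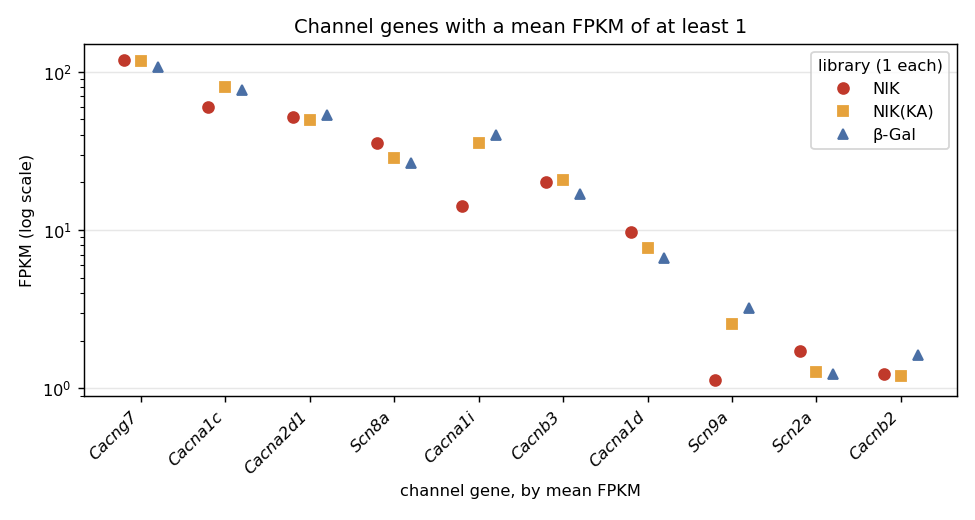
FPKM on a log scale for 10 channel genes with a mean of at least 1 FPKM, ordered by that mean, with 1 point per library. The NIK point lies below both others for Cacna1c, Cacna1i and Scn9a, and above both others for Cacng7, Scn8a, Cacna1d and Scn2a.

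A gene was called higher or lower at a 2-fold difference on the log2(FPKM + 1) scale, among the 12950 genes with a mean of at least 1 FPKM. In NIK against β-Gal, 0 of the 11 channel genes were higher, where 5.14% of all genes were. One gene, Cacna1i, was lower, or 9.09% of the 11, where 1.48% of all genes were. In NIK against NIK(KA), 0 were higher and Cacna1i alone was lower, where 5.07% and 1.10% of all genes were called. In NIK(KA) against β-Gal, 0 were higher and 0 lower, where 0.263% and 0.417% of all genes were called. With 11 genes these shares are coarse. Median differences of the 11 genes were 0.14 for NIK against β-Gal, 0.03 for NIK against NIK(KA) and 0.05 for NIK(KA) against β-Gal. Over all genes the medians were -0.02, -0.03 and 0.01 in the same order. The first comparison shares the NIK library with the second and the β-Gal library with the third.

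Counting intervals left out 1 for many of the 11 genes, those past 2-fold included. In NIK against β-Gal the interval lay above 1 for 6 genes (54.5%, against 26.7% of all genes) and below 1 for 3 (27.3%, against 28.2%). In NIK against NIK(KA) it lay above 1 for 3 genes and below 1 for 3, against 24.6% and 30.5% of all genes. For NIK(KA) against β-Gal the numbers were 5 and 3, against 19.0% and 14.5% of all genes. An interval that leaves out 1 sets apart these libraries, not the conditions.

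The T-type pore gene Cacna1i was the calcium channel gene with the clearest difference. T-type channels open at low voltage and carry brief currents near the resting potential. Cacna1i (ENSMUSG00000022416, chromosome 15, 80287238 to 80398279 on GRCm38, plus strand) had 679 reads and 14.2 FPKM in NIK. NIK(KA) gave 1806 reads and 35.3 FPKM, and β-Gal gave 2281 reads and 39.8 FPKM. NIK was thus the low library. It was 2.80-fold below β-Gal (2.57 to 3.05) and 2.48-fold below NIK(KA) (2.27 to 2.71). NIK(KA) was 1.13-fold below β-Gal (1.06 to 1.20). The other T-type genes gave no such difference at this depth. Cacna1g had a read count of 23 in NIK, of 34 in NIK(KA) and of 30 in β-Gal, and Cacna1h had 0, 1 and 0 reads in the same order.

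The L-type pore genes Cacna1c and Cacna1d lay on opposite sides. L-type channels open at high voltage and stay open long, and Cacna1d codes for the form that opens at the lower voltage. Cacna1c (chromosome 6, 118587240 to 119196418, minus strand) had 60.2 FPKM in NIK and 80.0 in NIK(KA), against 76.2 in β-Gal. NIK lay 1.27-fold below β-Gal (1.23 to 1.31) and 1.33-fold below NIK(KA) (1.29 to 1.37). Cacna1d (chromosome 14, 30039939 to 30491455, minus strand) had 9.69 FPKM in NIK and 7.74 in NIK(KA), against 6.68 in β-Gal. NIK lay 1.45-fold above β-Gal (1.30 to 1.61) and 1.25-fold above NIK(KA) (1.13 to 1.39). NIK(KA) lay 1.16-fold above β-Gal (1.04 to 1.30). A total of 589 exon bases of Cacna1d are shared with Chdh on the opposite strand, and the sources used here do not give the strand setting of the counting. Chdh itself was listed with 18, 20 and 4 reads in NIK, NIK(KA) and β-Gal, against 749, 642 and 620 reads of Cacna1d.

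The make-up of the calcium pore transcripts also differed between libraries. Summed over the 10 pore genes, the level was 85.8 FPKM in NIK and 124 in NIK(KA), against 124 in β-Gal. Cacna1i made up 16.6% of that sum in NIK and 28.3% in NIK(KA), against 32.2% in β-Gal. Per longest transcript the Cacna1i shares were 11.0%, 19.8% and 22.9%, in the same order. Cacna1c made up 70.2% in NIK and 64.3% in NIK(KA), against 61.6% in β-Gal, although its own FPKM was lowest in NIK. Per longest transcript the Cacna1c shares were closer, at 74.8%, 71.9% and 70.0% in the same order. Cacna1d held 11.3% in NIK and 6.23% in NIK(KA), against 5.40% in β-Gal. The P/Q-type pore gene Cacna1a, which neurons use for fast release, held 1.02% in NIK and 0.586% in NIK(KA), against 0.279% in β-Gal.

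**Figure D2:**
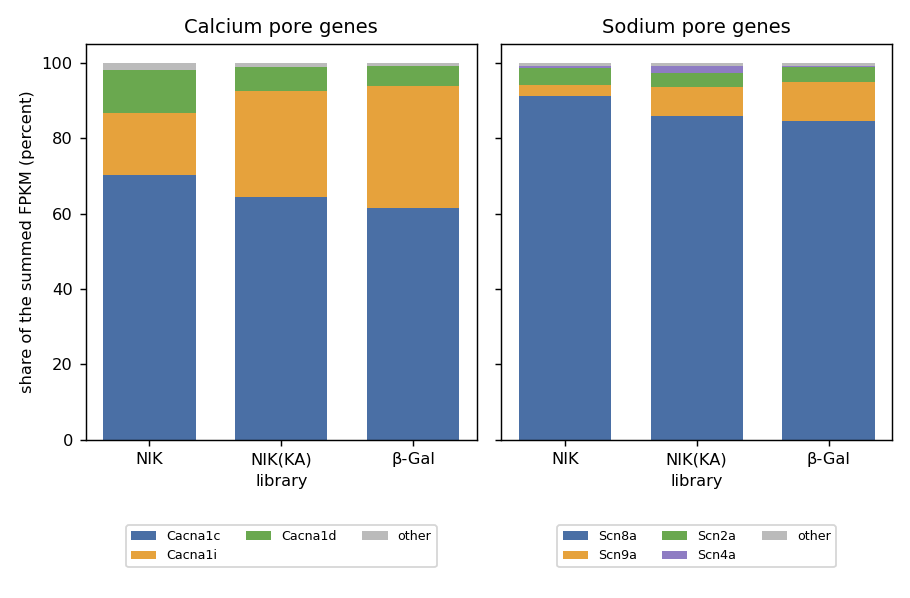
Share of the summed FPKM, in percent, held by each gene within the calcium pore genes and the sodium pore genes, with 1 stacked bar per library. Cacna1i takes 16.6% of the calcium pore bar in NIK, 28.3% in NIK(KA) and 32.2% in β-Gal. Scn9a takes 2.92%, 7.70% and 10.3% of the sodium pore bars, and 6.18%, 15.3% and 20.2% when set per longest transcript, which is not drawn.

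Of the auxiliary calcium subunits, the leading genes were close to level across the libraries. Cacna2d1, the α2δ subunit that binds gabapentin, had 52.2 FPKM in NIK and 49.6 in NIK(KA), against 53.4 in β-Gal. Its ratio was 0.977 between NIK and β-Gal (0.928 to 1.03). Cacng7 had 119 FPKM in NIK and 117 in NIK(KA), against 107.5 in β-Gal, so that NIK lay 1.10-fold above β-Gal (1.05 to 1.16). Cacnb3 had 20.2 FPKM in NIK and 20.6 in NIK(KA), against 16.8 in β-Gal. NIK and NIK(KA) were both above the control here, at 1.20-fold for NIK (1.09 to 1.32) and 1.22-fold for NIK(KA) (1.12 to 1.34). Cacnb2 had a low read count of 39 in NIK, of 41 in NIK(KA) and of 62 in β-Gal, and all 3 of its intervals include 1.

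The sodium pore genes also lay on opposite sides. Scn8a and Scn9a code for channels of fast sodium current in neurons, and Scn9a is a sodium pore gene known from mouse islet cells. Scn8a (chromosome 15, 100869858 to 101045938, plus strand) had 35.3 FPKM in NIK and 28.5 in NIK(KA), against 26.4 in β-Gal. NIK was 1.34-fold above β-Gal (1.25 to 1.43) and 1.24-fold above NIK(KA) (1.16 to 1.33). NIK(KA) was 1.08-fold above β-Gal (1.01 to 1.16). Scn9a (chromosome 2, 66480080 to 66634962, minus strand) had 114 reads and 1.13 FPKM in NIK. NIK(KA) gave 277 reads and 2.56 FPKM, and β-Gal gave 389 reads and 3.21 FPKM. NIK was the low library for Scn9a, at 2.84-fold below β-Gal (2.30 to 3.54) and 2.26-fold below NIK(KA) (1.81 to 2.84). Its difference from β-Gal on the log2(FPKM + 1) scale, -0.98, just misses the 2-fold rule, as the pseudocount of 1 understates the differences of low genes. NIK(KA) had a ratio of 0.797 to β-Gal for Scn9a (0.680 to 0.932). Scn2a had a read count of 94 in NIK, of 74 in NIK(KA) and of 81 in β-Gal, and NIK lay 1.39-fold above β-Gal (1.02 to 1.90). Against NIK(KA) the ratio of NIK was 1.36, with an interval that includes 1 (0.994 to 1.87).

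Scn9a, Scn2a and 3 further sodium pore genes form a cluster on chromosome 2. Of its genes, Scn9a alone had intervals below 1 for NIK against both other libraries, though Scn1a and Scn7a held too few reads for that. Scn3a, Scn2a, Scn1a, Scn9a and Scn7a lie there in this order, from 65457118 to 66784914. Scn3a had a read count of 21 in NIK, of 13 in NIK(KA) and of 20 in β-Gal. Scn1a, next to Scn9a, had 4, 1 and 1 reads in the same order, and Scn7a, on its other side, had 0 in each. On chromosome 7 Cacng7 is followed by Cacng8 and Cacng6 within 3332955 to 3435667. These neighbours had 10 to 12 reads per library and 0 reads, against 2785 to 3027 reads of Cacng7.

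The sodium β subunit genes Scn2b and Scn3b had more reads in NIK than in either other library. Scn4b had at most 1 read in a library, too few to show a difference. Proteins of this family modulate gating and take part in cell adhesion. Scn2b (chromosome 9, 45117782 to 45130070, plus strand) had a read count of 45 in NIK, of 3 in NIK(KA) and of 4 in β-Gal. Only NIK held more than a few reads. Its ratio was 13.5 to β-Gal (4.92 to 51.7) and 16.1 to NIK(KA) (5.17 to 80.9). Scn3b (chromosome 9, 40269217 to 40291618, plus strand) had a read count of 25 in NIK, of 3 in NIK(KA) and of 3 in β-Gal, with a ratio of 10.0 to β-Gal (3.05 to 51.8). Scn4b, which lies next to Scn2b from 45138395 to 45154152, had a read count of 0 in NIK, of 1 in NIK(KA) and of 1 in β-Gal. At 0.673 FPKM for Scn2b and 0.718 for Scn3b in NIK, both were under 1 FPKM in every library. The 7 listed neuron markers, which belong to cells where these subunits are abundant, summed to 46.4 FPKM in NIK and 70.6 in NIK(KA), against 68.7 in β-Gal. Of these 7, 4 passed a mean of 1 FPKM and Gad2 was at 0 reads. Gad1 was at 9.37 FPKM in NIK and 2.78 in NIK(KA), against 2.93 in β-Gal, while Tubb3 was at 21.7 and 50.7, against 50.3. Markers of the list thus lay on both sides, and their part in the result was not tested.

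**Figure D3:**
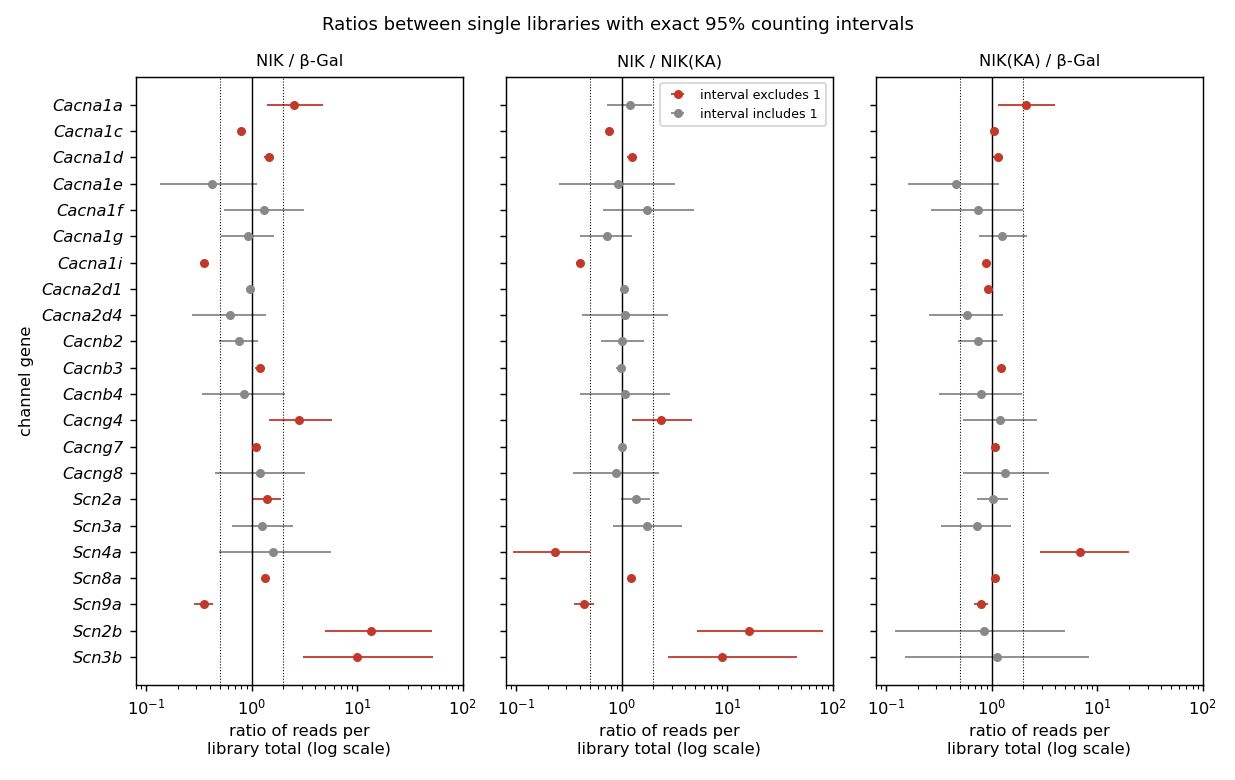
Ratio of reads per library total, on a log scale, for 22 channel genes with at least 30 reads over the 3 libraries, in each of the 3 comparisons. Points are ratios, bars are exact 95% counting intervals, and dotted lines mark 2-fold either way. Cacna1i and Scn9a lie left of the 2-fold line in both NIK comparisons, and Scn2b and Scn3b lie to the right of it. Scn2b, Scn3b and Cacng4 reached the 30 reads only through NIK, the library where they were high, and Scn4a only through NIK(KA).

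Upstream sequence is shown for Cacna1i and Scn9a, which were low in NIK, and for Scn2b, which was high there. NF-κB dimers bind sites of the general form GGG, then 5 bases of any kind, then CC, and matches to that pattern on either strand (GG, 5 bases, CCC on the other) are in capitals. Overlapping matches were counted one by one. Each line gives the 250 bases before the start in RefSeq, 5′ to 3′ on the gene's strand, on GRCm38.p6. The Cacna1i window is chr15:80286988-80287237 on the plus strand, the Scn9a window chr2:66634963-66635212 on the minus strand, and the Scn2b window chr9:45117626-45117875 on the plus strand, which reaches past the GENCODE start of that gene given above.
Cacna1i: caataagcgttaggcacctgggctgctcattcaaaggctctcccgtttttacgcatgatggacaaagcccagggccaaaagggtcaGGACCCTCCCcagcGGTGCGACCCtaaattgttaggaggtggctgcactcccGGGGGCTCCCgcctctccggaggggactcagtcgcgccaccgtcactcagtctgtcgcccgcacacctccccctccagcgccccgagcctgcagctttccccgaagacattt
Scn9a: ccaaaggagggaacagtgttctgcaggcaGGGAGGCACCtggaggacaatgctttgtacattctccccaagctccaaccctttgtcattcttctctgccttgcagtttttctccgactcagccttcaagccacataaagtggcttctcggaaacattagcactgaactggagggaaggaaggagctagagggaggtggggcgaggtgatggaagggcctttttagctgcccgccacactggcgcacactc
Scn2b: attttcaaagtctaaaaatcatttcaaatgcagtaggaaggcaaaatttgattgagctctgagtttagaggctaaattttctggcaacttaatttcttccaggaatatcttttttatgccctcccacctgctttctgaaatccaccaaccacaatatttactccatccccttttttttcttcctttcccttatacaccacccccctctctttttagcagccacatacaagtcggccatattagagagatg

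The pattern matched 3 times for Cacna1i, 1 time for Scn9a and 0 times for Scn2b in these windows. Such a match is loose, since 45.8% of all 32851 windows of this length held one. For the channel genes it was 26 of 41 windows, or 63.4%, over the 30 genes with an entry. Some genes gave several windows, and these shares were not adjusted for GC content. The GC content of the windows was 62.4% for Cacna1i, 54.4% for Scn9a and 38.4% for Scn2b, against a mean of 53.2% over all windows.

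Below the mean of 1 FPKM lay 29 channel genes, of which 24 had reads and 5 had none. Cacna2d3, Cacng1, Cacng3, Cacng6 and Scn7a had 0 reads in each library, and each count of 0 allows up to 3 reads. Because log2(FPKM + 1) hides ratios of such genes, they were also compared as reads, a choice added once the values were known. The call then needed a ratio of at least 2-fold, an interval without 1 and at least 10 reads in the 2 libraries. In NIK against β-Gal it took 6 of 24 channel genes as higher, where 8.49% of all genes were, and 2 as lower, where 2.96% were. Among the higher genes were Scn2b, Scn3b, Cacna1a, Cacna1b and Cacng4, and the lower ones Cacna1i and Scn9a. Cacna1b, Scn2b and Scn3b reached the 10 reads only through NIK, the library where they were high, so these counts are a description only. In NIK against NIK(KA) it took 4 of 24 as higher, where 7.83% of all genes were, and 3 as lower, where 3.27% were. Cacna1b, Cacng4, Scn2b and Scn3b were higher, and Cacna1i, Scn4a and Scn9a lower. The same 3 genes reached 10 reads only through NIK here, and Scn4a only through NIK(KA) in both comparisons with NIK(KA). In NIK(KA) against β-Gal, Cacna1a and Scn4a were higher of 23 genes, where 2.17% of all genes were, and 0 were lower, where 1.03% were.

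Cacna1b and Cacna1a are the pore genes of N-type and P/Q-type channels, which open near release sites in neurons. Cacna1b (chromosome 2, 24603887 to 24763152, minus strand) had a read count of 15 in NIK, of 1 in NIK(KA) and of 0 in β-Gal. The exact interval of its ratio between NIK and β-Gal starts at 4.30 and has no upper end. Cacna1a (chromosome 8, 84388440 to 84640246, plus strand) had a read count of 38 in NIK, of 34 in NIK(KA) and of 18 in β-Gal. NIK and NIK(KA) were again both above the control, at 2.53-fold for NIK (1.41 to 4.72) and 2.11-fold for NIK(KA) (1.16 to 3.97), while NIK and NIK(KA) had a ratio of 1.20 (0.735 to 1.96). Cacng4, of the γ family, had a read count of 33 in NIK, of 15 in NIK(KA) and of 14 in β-Gal, and was 2.83-fold above β-Gal in NIK (1.47 to 5.72).

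Scn4a, the sodium pore gene of skeletal muscle, was the gene that stood out in NIK(KA). It lies on chromosome 11 from 106318592 to 106353288 on the minus strand. It had a read count of 8 in NIK, of 37 in NIK(KA) and of 6 in β-Gal. NIK(KA) was 6.90-fold above β-Gal (2.89 to 20.0), and NIK had a ratio of 0.232 to NIK(KA) (0.0933 to 0.506). The 6 listed skeletal muscle markers summed to 11 reads in NIK and 32 in NIK(KA), against 15 in β-Gal. Of the 6, 0 passed a mean of 1 FPKM, and Myh1 and Tnni2 were at 0. Acta1 gave 28 of those 32 reads, and Ckm was at 0, 2 and 5 reads in NIK, NIK(KA) and β-Gal. Of the liver markers Alb had 6 reads in NIK, 75 in NIK(KA) and 18 in β-Gal. The part of either list in the Scn4a result was not tested.

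The 9 listed heart muscle markers summed to 6.62 FPKM in NIK and 9.27 in NIK(KA), against 43.4 in β-Gal, with 7 of the 9 past a mean of 1 FPKM and none at 0 throughout. Of these sums 4.96, 7.10 and 8.30 FPKM were Ryr2, in the same order of libraries. Apart from Ryr2, the markers past that mean were under 1 FPKM in NIK and NIK(KA), and passed it through β-Gal alone. Myl2 was at 0 reads in NIK and NIK(KA), against 89 in β-Gal, and the part of this list in the channel results was not tested. Heart muscle also uses Cacna1c, which was at 1.05-fold in NIK(KA) over β-Gal (1.02 to 1.08). In NIK it lay 1.27-fold below β-Gal (1.23 to 1.31). The part of heart muscle in either ratio was not tested.

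The other 18 low genes with reads held 0 to 34 reads in a library. Among them were the R-type pore gene Cacna1e, with a read count of 6 in NIK, of 7 in NIK(KA) and of 17 in β-Gal, and Cacna2d4, with 11 and 11 against 21. Both had intervals that include 1 in each comparison. Pores of retina (Cacna1f), skeletal muscle (Cacna1s) and sensory neurons (Scn10a, Scn11a) had at most 13, 3, 1 and 4 reads in a library.

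**Figure D4:**
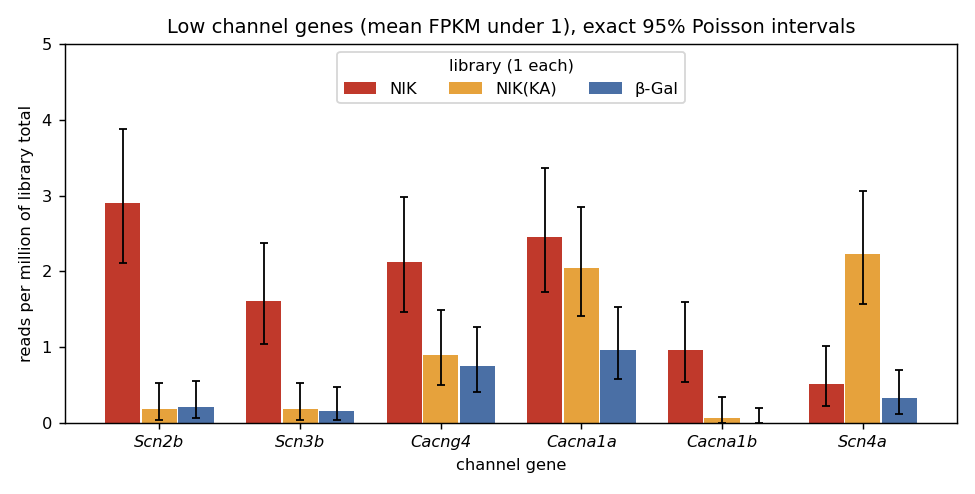
RPM (reads scaled to the library total), with exact 95% Poisson intervals as bars, for 6 channel genes with a mean under 1 FPKM, with 1 column per library. Scn2b reaches 2.90 in NIK, 0.180 in NIK(KA) and 0.215 in β-Gal, whereas Scn4a is highest in NIK(KA) at 2.22.

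Genes that act on these channels or beside them were taken from 5 lists. Of 17 listed calcium channel regulators 12 had a mean of at least 1 FPKM. Among the 12, 2 were at least 2-fold higher in NIK and 0 were lower, where 5.14% and 1.48% of all genes were against β-Gal. The numbers were the same against NIK(KA), where 5.07% and 1.10% of all genes were called. In NIK(KA) against β-Gal 0 of the 12 were called, near the 0.263% and 0.417% of all genes called higher and lower. One of the 2 passed the mean of 1 FPKM through its level in NIK alone, so the count is a description. The 2 were Gem and Rrad, of which Rrad is the one under 1 FPKM in the other libraries. They code for small GTP-binding proteins that bind calcium channel β subunits and inhibit high-voltage-activated current. Gem had a read count of 327 in NIK, of 75 in NIK(KA) and of 69 in β-Gal, with NIK 5.69-fold above β-Gal (4.37 to 7.49). Rrad had a read count of 67 in NIK, of 10 in NIK(KA) and of 13 in β-Gal, with NIK 6.18-fold above β-Gal (3.38 to 12.2), at 4.29 FPKM in NIK and 0.597 in NIK(KA), against 0.694 in β-Gal. Their relatives Rem1 and Rem2 had 0 reads and 2 to 7 reads per library. The median difference of the list was 0.00 for NIK against β-Gal. Rimbp2, which ties calcium channels to release sites and is named after its values were seen, had 32.2 FPKM in NIK and 56.2 in NIK(KA), against 64.5 in β-Gal. NIK lay 2.0-fold below β-Gal for it (1.90 to 2.12), at a log2 difference of -0.98.

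Of 9 listed sodium channel regulators 6 passed the mean of 1 FPKM. None of the 6 was past the rule, which with 5.14% of all genes higher and 1.48% lower says little of so short a list. Their median was -0.14 for NIK against β-Gal. Nedd4, a ubiquitin ligase, had 234 FPKM in NIK and 226 in NIK(KA), against 229 in β-Gal. Ank3, which anchors sodium channels in neurons, had 50.3 FPKM in NIK and 70.3 in NIK(KA), against 75.8 in β-Gal. Nedd4l, a relative of Nedd4, had 41.5 FPKM in NIK and 29.2 in NIK(KA), against 33.9 in β-Gal. For the sodium leak channel, 4 of 5 listed genes were matched and 3 passed the mean of 1 FPKM, with 0 past the rule and a median of 0.17. Its pore gene Nalcn had a low read count of 2 in NIK, of 3 in NIK(KA) and of 3 in β-Gal, while its partner Unc80 had 106 FPKM in NIK and 96.6 in NIK(KA), against 94.1 in β-Gal. The partner Unc79 had 12.9 FPKM in NIK and 17.7 in NIK(KA), against 15.3 in β-Gal, and Fam155a 16.9 and 15.1, against 14.5.

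Of 23 genes of calcium stores, entry and clearance 12 passed the mean of 1 FPKM, with 1 higher in NIK, 0 lower and a median of 0.14 against β-Gal. One of 12 is near the 5.14% of all genes called higher. The higher gene was Orai2, a pore subunit of store-operated calcium entry. It had 67.4 FPKM in NIK and 12.4 in NIK(KA), against 12.8 in β-Gal, 5.27-fold above β-Gal (4.84 to 5.75) and 5.45-fold above NIK(KA) (4.97 to 5.97). Orai1, the best known pore subunit of that entry, had 5.20 FPKM in NIK and 5.54 in NIK(KA), against 4.37 in β-Gal. Of 8 other cation channel genes 6 passed, with 1 higher and 0 lower, where 5.14% and 1.48% of all genes were, and a median of 0.07. This was Hcn3, of the hyperpolarisation-activated family, with 77.4 FPKM in NIK and 33.3 in NIK(KA), against 29.9 in β-Gal, 2.59-fold above β-Gal (2.39 to 2.81). Orai2 and Hcn3 were called higher in NIK against NIK(KA) too, where 5.07% of all genes were higher and 1.10% lower. In NIK(KA) against β-Gal 0 genes of these last 4 lists were called, where 0.263% of all genes were higher and 0.417% lower. With such shares, 0 calls say little of lists this short.

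**Figure D5:**
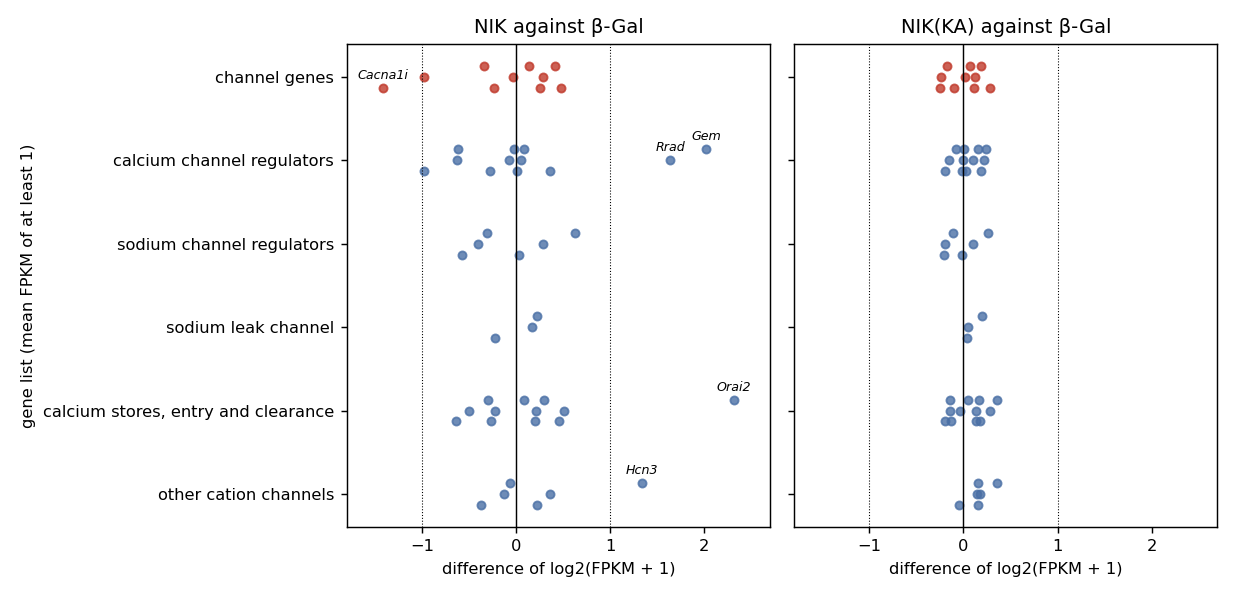
Difference of log2(FPKM + 1) for 10 channel genes (red) and for the genes of 5 lists of regulators and other ion-handling genes (blue) with a mean of at least 1 FPKM, for NIK against β-Gal and NIK(KA) against β-Gal, with 1 point per gene. Dotted lines mark 2-fold. Gem, Rrad, Orai2, Hcn3 and Cacna1i lie past them in NIK, and no point does in NIK(KA). Of all genes, 0.263% were called higher and 0.417% lower in NIK(KA) against β-Gal.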

How the data were processed

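Total RNA of αTC1-6 cells was sequenced, with 1 library per group. The deposited values are FPKM per gene; TopHat2, HTSeq 0.6.1 and GRCm38 were used, per the submitters' processing notes, while the sources used here do not give their roles, the annotation release or the strand setting. All 3 deposited columns were used.

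Of 52948 gene IDs, 52489 matched GENCODE M21 (GRCm38). FPKM steps gave each library total and, within 0.001 of a read, whole reads for 26583 of 26584 detected genes. Where the implied length lay over 10% from the annotated one, the smallest fitting length was taken. Recovery was tested on simulated data. Levels were compared as log2(FPKM + 1); with 1 library a group no test was run. Map3k14 was left out of the counts over all genes.

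Members described one by one had a mean of at least 1 FPKM, at least 1 FPKM in a library or a 2-fold call; genes beyond this rule (Cacna1a, Cacna1b, Scn2b, Scn3b, Scn4a and other low members, and Rem1, Rem2, Rimbp2, Nalcn and Orai1 of the lists) were chosen after their values were seen. Members and lists were chosen with earlier results of these data known. Python 3.11.15, pandas 2.3.3, scipy 1.17.1 and matplotlib 3.10.9 were used. Results of 2 members are not reported here; they stay in the counts, medians and shares.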

Additional observations from a re-analysis of the deposited data

How the results depend on the processing

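No paired analysis was possible because each group held 1 library, and leaving out a replicate was not possible for the same reason. For NIK against β-Gal, the 0 higher and 1 lower channel genes became 1 and 2 (Cacna1i and Scn9a) with a pseudocount of 0.1 or a call at 1.5-fold. Over all 12950 genes the calls also went up, with 835 higher and 357 lower at a pseudocount of 0.1 and 1293 and 750 at 1.5-fold, against 666 and 192 as reported. Upper-quartile scaling gave 2 lower as well, where 208 of 12949 genes were lower. For NIK against NIK(KA), the 0 higher and 1 lower became 0 and 2 with a pseudocount of 0.1, and 1 and 2 at 1.5-fold. Over all 12950 genes the calls were 813 and 305 at a pseudocount of 0.1. They were 1246 and 678 at 1.5-fold, against 657 and 142 as reported. On reads rather than log2(FPKM + 1), a choice added once the values were known, the numbers were 6 higher and 2 lower for NIK against β-Gal. They were 4 and 3 for NIK against NIK(KA), and 2 and 0 for NIK(KA) against β-Gal. The shares of all genes under the call on reads are given with the low genes above. With no filter 35 channel genes were counted, by construction, since genes with no reads drop out, and with a mean of at least 5 FPKM 8 were. The other counts of calls stayed as reported under the settings run. The median difference for NIK against β-Gal, 0.14, was 0.05 with no filter and 0.19 with a mean of at least 5 FPKM, and lay within 0.10 to 0.14 under the other pseudocounts and scalings. Depth limits the genes under 1 FPKM most, whose intervals span several-fold.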
